A study of Mus musculus with 42 samples.

Results

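Old macrophages taken at ZT16 were compared with old macrophages taken at ZT4, which makes 6 of the 42 libraries of a study of age and time of day. The Old ZT16 and Old ZT4 groups held 3 libraries each, from C57BL/6 mice of 18 to 20 months, and were chosen by the age and time in the sample names. ZT is zeitgeber time, the hours since the lights came on, so that ZT16 falls in the early night and ZT4 in the early day. The other 15 Old libraries, at ZT0, ZT8, ZT12, ZT20 and ZT24, gave the spread between libraries, and Young ZT16 and Young ZT4, also with 3 libraries each, from C57BL/6 mice of 2 to 3 months, gave the same contrast at another age. No deletion, transgene or agent is named for any group. The organ that the macrophages came from is not named in the labels. Whether each library is a separate animal is not stated there either, so p-values measure the spread between libraries, which may be technical.

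The circadian clock of a mammalian cell is a loop in which BMAL1 and CLOCK bind E-boxes and switch on the Period and Cryptochrome genes, whose proteins then block BMAL1 and CLOCK. A second loop runs through REV-ERBα, the product of Nr1d1, which represses Arntl, the gene of BMAL1. DBP and TEF, made under E-box control, act on D-boxes, and macrophages carry this clock together with daily inputs from glucocorticoids and body temperature. The study asked how ageing bears on gene expression over the day, and ZT16 against ZT4 sets times 12 h apart side by side within the old animals.

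Values are the deposited normalized levels, a 3′ end signal that gene length does not enter, and the 6 libraries held between 6057242 and 11969990 reads in genes. Macrophage genes were high in all of them: over the 6 libraries Lyz2 averaged 196360, Adgre1 5859 and Csf1r 2625, and the summed level of the 10 macrophage markers was 187643 to 270497 at ZT16 and 223986 to 270794 at ZT4. Markers of other cells were also present. The 15 B cell genes summed to 13855 to 22004 at ZT16 and 15967 to 26281 at ZT4, and the 19 T and NK cell genes to 672 to 1096 at ZT16 and 752 to 1622 at ZT4. The largest member of the T and NK list was Cd2, which averaged 675 over the 6 libraries, while Cd3e, Cd3g and Trac averaged 10.7, 8.53 and 22.3. The 11 mast cell and basophil genes summed to 1398 to 3789 at ZT16 and 1539 to 2897 at ZT4, with Hdc averaging 1758 over the 6 libraries. S100a8 of the neutrophil list averaged 250 and Il5ra of the eosinophil list 158. All 8 lists of other cells had overlapping sums at both times. Single members (Ncr1, Mcpt8, Mpo, Epx, Ppbp and Pdgfra) were at 0 in all 6 libraries, while other members of their lists were above 0. A pair of ZT16 libraries stood apart. Old ZT16 replicate 1 had 16277 genes above 0 (the other 5 had 14548 to 15151) and a summed level of 97070 over 17 genes of monocyte-derived macrophages, against 50783 to 65051 in the other 5, and in Old ZT16 replicate 3 a set of 18 genes lay at least 10 times above the other 5 libraries. In bulk RNA, fewer cells of a type and less RNA per cell cannot be told apart.

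Of 12016 genes tested, 5 passed an adjusted p of 0.05 between ZT16 and ZT4 in old macrophages, which is 0.0416% (limma-trend on log2 of the value + 1, moderated contrast, Benjamini-Hochberg over all genes). Per2, Tef and Hsph1 rose, and Nr1d1 and Thra fell. Without 1 library the number called was 1 without Old ZT16 replicate 3, Old ZT4 replicate 1 or Old ZT4 replicate 2, 2 without Old ZT4 replicate 3, 3 without Old ZT16 replicate 1 and 7 without Old ZT16 replicate 2. Per2, Tef and Nr1d1 are clock genes, Hsph1 encodes a cytosolic chaperone, and Thra encodes a thyroid hormone receptor and shares the end of its locus with Nr1d1. At an unadjusted p of 0.05, 527 genes were higher at ZT16 (4.39%) and 476 were lower (3.96%), with a median log2 fold of 0.01 over all genes. A log2 fold above 0 was found for 6162 of the 12016. All 3 ZT16 libraries lay above all 3 ZT4 libraries for 770 genes (6.41%) and below them for 750 genes (6.24%). The same contrast in young macrophages called 293 of 12113 genes (2.42%), of which 161 were higher (1.33%) and 132 lower (1.09%).

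**Figure D1:**
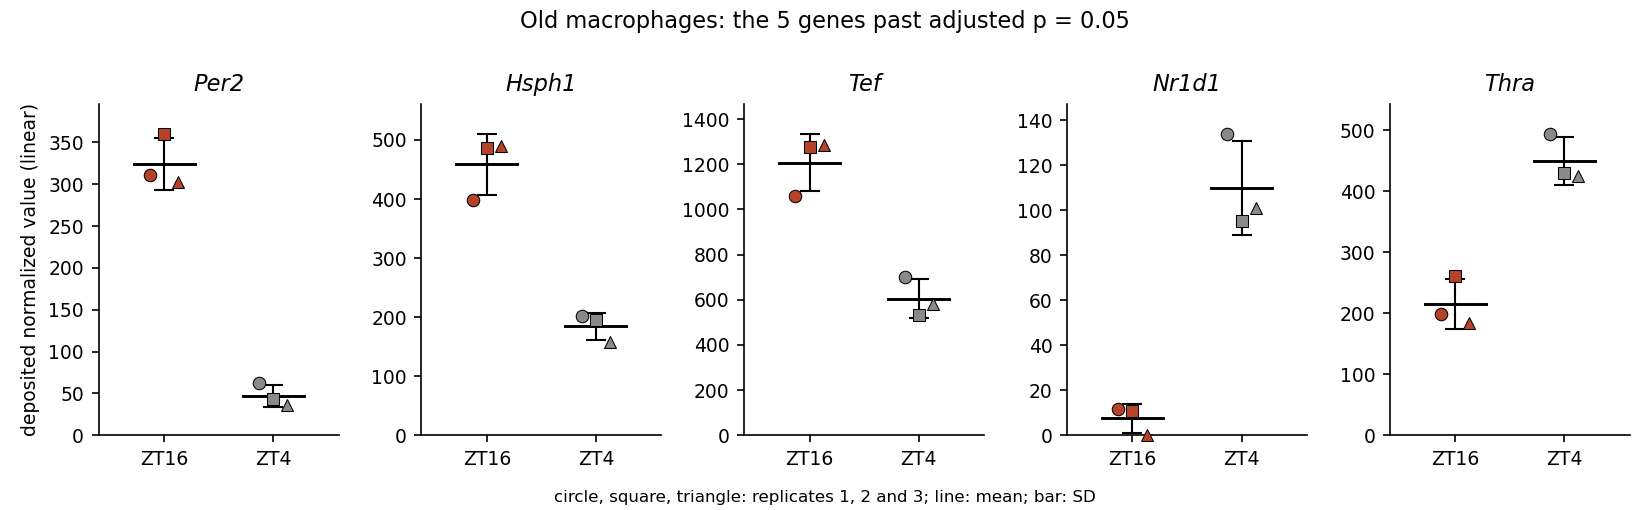
Deposited normalized values (linear axes from 0) of the 5 genes past adjusted p = 0.05 in the 3 Old ZT16 and the 3 Old ZT4 libraries, with a marker per library, the mean as a line and the SD as a bar. For each of the 5 genes ZT16 and ZT4 do not overlap: Per2, Hsph1 and Tef are higher at ZT16, and Nr1d1 and Thra are lower.

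Per2 (chromosome 1, 91415982 to 91459324, minus strand, ENSMUSG00000055866, GRCm38), whose protein PER2 blocks BMAL1 and CLOCK, had 311, 360.1 and 302 at ZT16, against 62.1, 42.9 and 35.7 at ZT4. The lowest ZT16 library was well above the highest ZT4 library, and the mean was 6.96-fold higher at ZT16 on the scale of value + 1. The log2 fold was 2.80 ± 0.28 (SE, 95% interval 2.21 to 3.39), with an adjusted p of 1.32e-05 in limma. Per2 was the only gene past the threshold in each of the 6 fits that left out 1 ZT16 or ZT4 library, with adjusted p between 2.39e-05 and 0.000349.

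Tef (chromosome 15, 81802421 to 81826863, plus strand, ENSMUSG00000022389), a PAR-bZIP factor that binds D-boxes, had 1061, 1275 and 1287 at ZT16, against 701, 533 and 579 at ZT4. The groups did not overlap. Its log2 fold was 1.001 ± 0.18 (95% interval 0.62 to 1.38, 2.001-fold) and its adjusted p 0.0412 in limma, and leaving out any 1 of the 6 libraries took it to between 0.0713 and 0.167. The call of Tef was also lost in edgeR (0.0524), in the fit of the 6 libraries alone (0.0570), with upper quartile scaling (0.0588), array weights (0.0647) or no filter (0.0670) and with a replicate block (0.0797).

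Of the called clock genes, Tef and Nr1d1 had RefSeq promoter windows (250 bases before to 50 after a start site, GRCm38.p6) and were searched for E-boxes and D-boxes. Per2 was not searched. Both windows of Tef are shown because they hold an E-box, CACGTG, in capitals. The upstream one lies at chr15:81802423-81802722 and the other at chr15:81811164-81811463, both on the plus strand.
Tef, upstream start: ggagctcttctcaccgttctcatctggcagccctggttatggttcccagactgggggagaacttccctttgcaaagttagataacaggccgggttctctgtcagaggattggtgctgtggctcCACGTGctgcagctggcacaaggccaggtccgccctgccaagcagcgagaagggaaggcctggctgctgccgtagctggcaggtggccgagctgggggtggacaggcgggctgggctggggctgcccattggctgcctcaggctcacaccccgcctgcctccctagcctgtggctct
Tef, downstream start: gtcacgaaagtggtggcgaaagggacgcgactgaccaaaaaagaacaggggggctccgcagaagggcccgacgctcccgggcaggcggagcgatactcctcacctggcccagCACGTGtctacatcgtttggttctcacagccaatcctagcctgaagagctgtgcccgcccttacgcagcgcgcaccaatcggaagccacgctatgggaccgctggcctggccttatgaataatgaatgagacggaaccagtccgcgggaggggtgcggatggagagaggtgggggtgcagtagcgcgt
The E-box begins 127 bases before the upstream start site and 138 bases before the other. Of 32851 mouse promoter windows of this length, 7.15% hold CACGTG, which reads the same on both strands, so a match describes the sequence and does not show a bound site. No CACGTG and no D-box (TTATGTAA or TTACGTAA, either strand) was in the Nr1d1 window.

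Nr1d1 (chromosome 11, 98767932 to 98775333, minus strand, ENSMUSG00000020889), which encodes the repressor REV-ERBα, had 11.8, 10.6 and 0 at ZT16, against 134, 95.2 and 101 at ZT4. Every ZT16 library was far below every ZT4 library, and 1 of them held no read of the gene. The log2 fold was -4.37 ± 0.76 (95% interval -5.94 to -2.80) and the adjusted p 0.0312 in limma, which became 0.0776 without Old ZT16 replicate 3 and 0.103 to 0.185 without each of the ZT4 libraries. It was 0.0670 with no filter and 0.213 in the fit of the 6 libraries alone. At these low levels the size depends on the added 1.

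Thra (chromosome 11, 98740638 to 98769006, plus strand, ENSMUSG00000058756), the gene of thyroid hormone receptor alpha, had 199, 261 and 184 at ZT16, against 494, 430.2 and 424 at ZT4. The groups did not overlap, with a log2 fold of -1.07 ± 0.20 (95% interval -1.49 to -0.66) and an adjusted p of 0.0412 in limma. Leaving out 1 library gave Thra an adjusted p of 0.103 to 0.260, except without Old ZT16 replicate 2, where it was 0.0207. The call of Thra was also lost in edgeR (0.0524), with no filter (0.0640), with a replicate block (0.0964), with marker covariates (0.104) and in the fit of the 6 libraries alone (0.138). Thra and Nr1d1 lie on opposite strands and overlap over 1075 bases, from 98767932 to 98769006 on chromosome 11, at the ends where 3′ reads fall. How the authors' counting used strand is not given in the sources used here, so reads of these genes cannot be told apart over that stretch. How far shared reads enter either fall was not tested.

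Of the 18 measured clock genes, 2 rose and 1 fell, and a further 6 higher and 1 lower had an unadjusted p below 0.05. Over all genes 0.0416% were called, and 4.39% were higher and 3.96% lower at that p. The clock genes' median log2 fold was 0.19, against 0.01 over all genes. Among the repressors, Cry1 had 164, 154 and 164 at ZT16, against 52.5, 45.6 and 95.3 at ZT4. These did not overlap, but the log2 fold of 1.38 ± 0.27 missed the threshold in limma (adjusted p = 0.0821). It passed without Old ZT4 replicate 3, the highest of the ZT4 libraries, and in DESeq2. Per1, Cry2 and Per3 had log2 folds of 0.88 ± 0.34, 0.73 ± 0.29 and 0.67 ± 0.29, with adjusted p of 0.473, 0.496 and 0.541 in limma. In all of these the 3 ZT16 libraries lay above the 3 ZT4 libraries. Ciart, an inhibitor of CLOCK and BMAL1, was close to the lowest measurable levels, with 9.85, 12.7 and 7.47 at ZT16, against 0, 4.02 and 0 at ZT4. Its model overlaps an antisense one, so the reads are uncertain.

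Among the activators, Arntl had 98.5, 94.5 and 123 at ZT16, against 236, 204 and 176 at ZT4. The ZT16 libraries lay below the ZT4 libraries, with a log2 fold of -0.95 ± 0.25 and an adjusted p of 0.277 in limma. Clock, whose protein partners BMAL1, had a log2 fold of -0.15 ± 0.15 (95% interval -0.46 to 0.16), and Rora, which activates Arntl, one of -0.27 ± 0.24 (-0.77 to 0.23). Both intervals take in 0.

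The remaining clock genes, outputs of the clock among them, had log2 folds on both sides of 0. The contrast does not show their course between ZT4 and ZT16. Dbp, the partner of Tef among PAR-bZIP factors, had 36.5, 66.9 and 56.01 at ZT16, against 46.9, 89.8 and 90.5 at ZT4. Those values overlapped, and the log2 fold was -0.49 ± 0.49 (adjusted p = 0.842 in limma). Nr1d2, which encodes REV-ERBβ, had 272, 480.2 and 222 at ZT16, against 363, 295 and 319 at ZT4, with a log2 fold of -0.08 ± 0.29. For Nr1d2 the ZT16 values lay on both sides of the ZT4 values. Bhlhe40 and Bhlhe41, which encode the repressors DEC1 and DEC2, had log2 folds of 0.46 ± 0.20 and -0.09 ± 0.33, and Nfil3, which competes for D-boxes, one of -0.03 ± 0.30. The casein kinase genes Csnk1d and Csnk1e, whose products mark PER proteins for decay, had log2 folds of 0.22 ± 0.12 and 0.17 ± 0.16. None of these 7 passed the threshold.

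**Figure D2:**
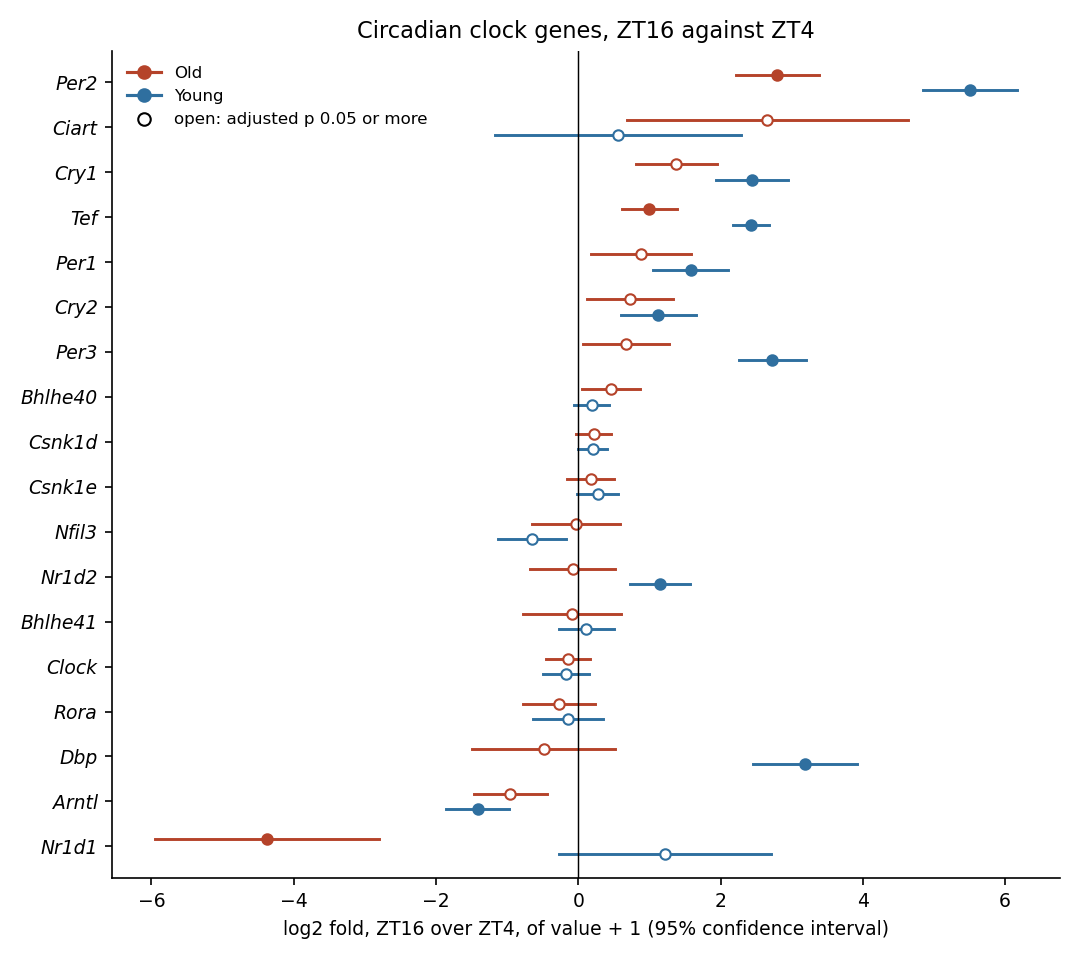
Log2 fold of ZT16 over ZT4 (of value + 1) with 95% confidence intervals for the 18 measured clock genes, Old above Young for each gene, filled where the adjusted p was below 0.05. In old macrophages Per2 (2.80), Tef (1.001) and Nr1d1 (-4.37) are filled, and in young macrophages Dbp (3.19), Per3 (2.73) and Nr1d2 (1.15) also lie clear of 0.

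The times around the contrast place these genes on their daily course. In old macrophages Per2 averaged 110.1, 46.9, 191, 373, 325, 216 and 87.2 at ZT0, 4, 8, 12, 16, 20 and 24, so that ZT4 was its lowest time and ZT16 lay just after its highest. Tef averaged 605 at ZT4, 2303 at ZT12 and 1208 at ZT16, and Nr1d1 110.0, 197 and 7.48 at ZT4, ZT8 and ZT16. Tef and Nr1d1 thus had their highest means between the times compared. Dbp did as well: it averaged 75.7 ± 24.96 at ZT4, 344 ± 60.9 at ZT8, 354 ± 52.97 at ZT12 and 53.1 ± 15.4 at ZT16 (SD, n = 3 each). Thra was highest at ZT4 (449.6) and lowest at ZT16 (215).

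**Figure D3:**
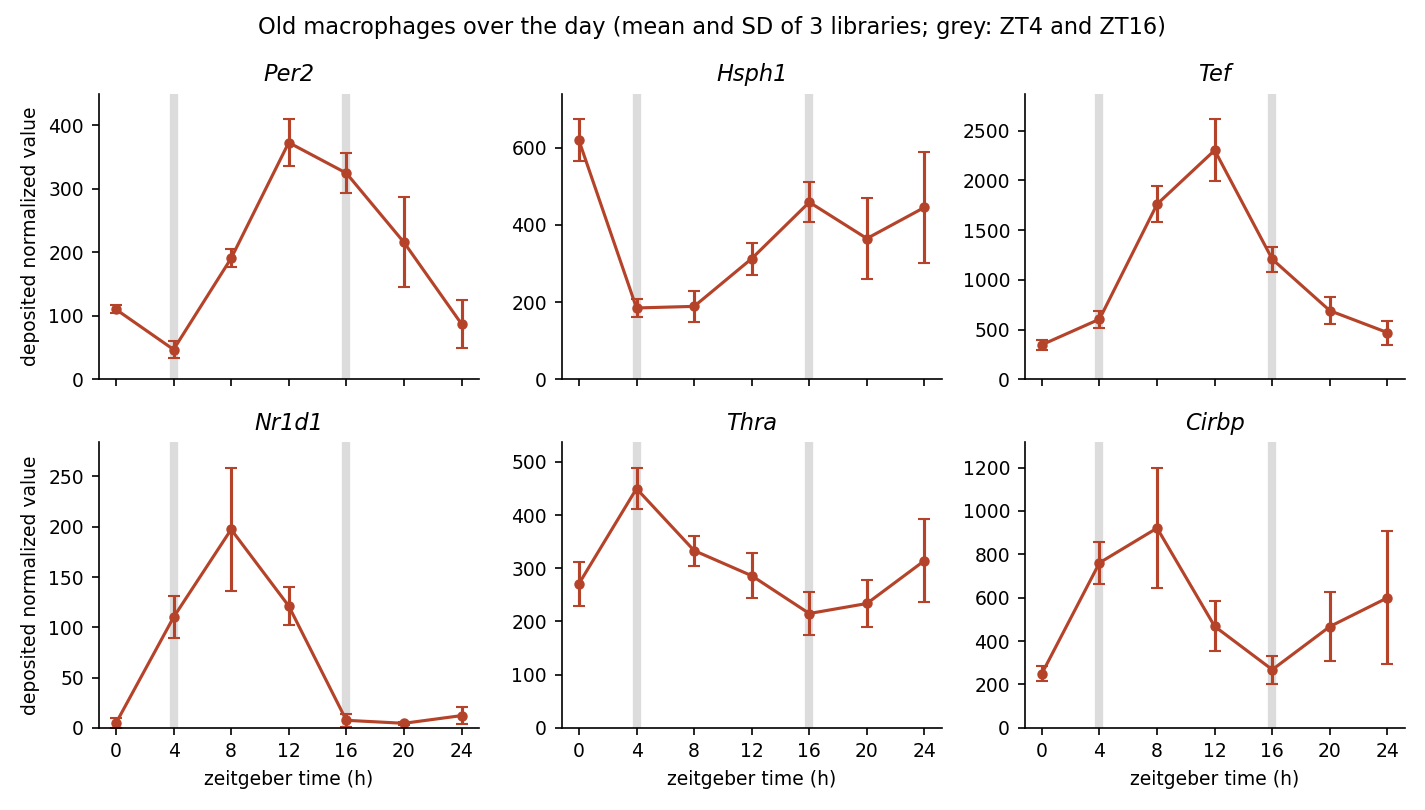
Mean deposited value with SD (3 libraries per time, linear axes from 0) of 6 genes in old macrophages at ZT0 to ZT24, with ZT4 and ZT16 shaded grey. Per2 and Hsph1 are lowest at ZT4 (46.9 and 185), Thra is lowest at ZT16 (215), and Tef and Nr1d1 have their highest means at ZT12 (2303) and ZT8 (197).

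Heat shock chaperones fold new and damaged proteins in the cytosol, and their transcription follows HSF1. Hsph1 (chromosome 5, 149614287 to 149636376, minus strand, ENSMUSG00000029657), which encodes HSP110, an exchange factor for HSP70, had 399, 487 and 490.4 at ZT16, against 202, 194 and 158 at ZT4. The groups did not overlap. The log2 fold was 1.31 ± 0.22 (95% interval 0.86 to 1.76, 2.48-fold), with an adjusted p of 0.0265 in limma. Leaving out Old ZT16 replicate 1 left the call in place (0.0362), and without any other 1 of the 6 libraries the adjusted p was 0.0623 to 0.118.

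Hsph1 was the one called gene outside the clock and the Nr1d1 locus, and its promoter is shown for that reason, chosen after its values were seen (RefSeq, GRCm38.p6, chr5:149636266-149636565, minus strand). The capitals mark an E-box, CACGTG, and a pair of facing heat shock half-sites, GAANNTTC.
Hsph1: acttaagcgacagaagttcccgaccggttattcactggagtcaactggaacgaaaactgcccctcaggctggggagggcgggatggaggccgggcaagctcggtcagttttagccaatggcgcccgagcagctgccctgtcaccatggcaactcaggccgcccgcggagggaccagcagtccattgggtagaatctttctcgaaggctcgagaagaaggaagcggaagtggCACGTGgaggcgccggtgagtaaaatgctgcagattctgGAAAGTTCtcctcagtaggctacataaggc
The E-box begins 19 bases before the start site and the half-site pair 20 bases after it. A second annotated start 21 bases upstream gives a window with the same matches. Both motifs read the same on both strands and do not overlap here, and GAANNTTC is in 7.86% of the 32851 windows.

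All 23 genes of the heat shock list were measured. Hsph1 rose, none fell, and 13 were higher at an unadjusted p of 0.05 with none lower, against 4.39% and 3.96% of all genes. The median log2 fold was 0.44, against 0.01 over all genes, and 21 of the 23 were above 0, against 6162 of 12016 over all genes. For 11 members all ZT16 libraries lay above all ZT4 libraries, against 6.41% of all genes, and for none did they lie below. With 1 library left out, 11 to 14 members were higher at that p and 0 or 1 lower.

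Hspa8, the constitutive HSP70, had 2159, 1636 and 1392 at ZT16, against 856, 1011 and 806 at ZT4. The ZT16 libraries were all above the ZT4 libraries, and the log2 fold was 0.94 ± 0.19 (adjusted p = 0.0821 in limma). Hsp90aa1, the inducible HSP90, had 583, 624 and 433 at ZT16, against 323, 292 and 307 at ZT4, with a log2 fold of 0.81 ± 0.17 (adjusted p = 0.097). Cacybp, which encodes a calcyclin-binding protein, had 622, 580.0 and 545 at ZT16, against 396, 331 and 376 at ZT4 and a log2 fold of 0.66 ± 0.14 with the same adjusted p. For these genes too the groups did not overlap. Stip1, the co-chaperone that links HSP70 and HSP90, had a log2 fold of 0.63 ± 0.18, the HSP40 genes Dnajb1 and Dnaja1 ones of 0.52 ± 0.15 and 0.51 ± 0.17, and Hspd1 and Hspe1, the mitochondrial chaperonins, ones of 0.53 ± 0.16 and 0.52 ± 0.20. None of these passed the threshold over all genes in limma, while DESeq2 called Hspa8, Hsp90aa1 and Cacybp. Hspa1a and Hspa1b, the stress-induced HSP70 genes, are near-identical copies whose reads counting could split, and had log2 folds of 0.23 ± 0.29 and 0.44 ± 0.39. Hsf1 itself had one of 0.02 ± 0.29.

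**Figure D4:**
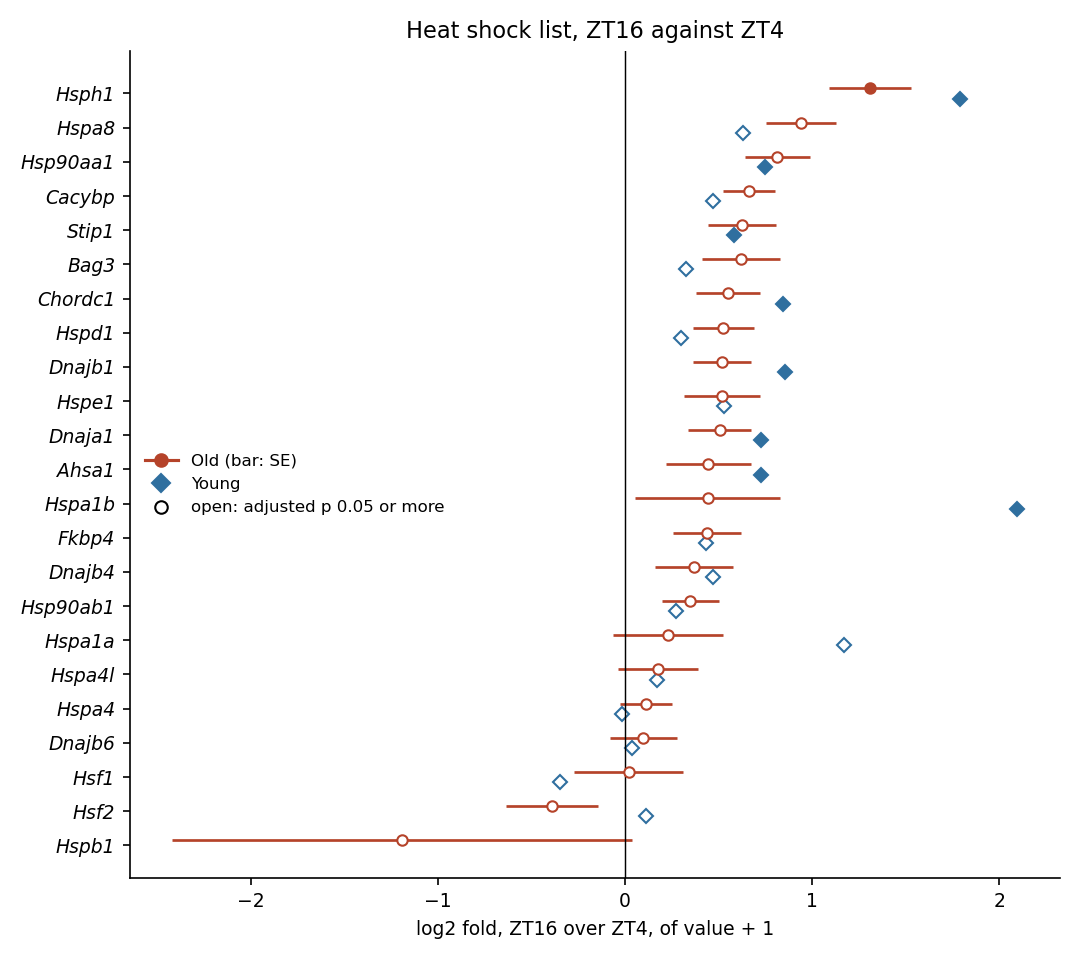
Log2 fold of ZT16 over ZT4 (of value + 1) for the 23 genes of the heat shock list, Old as circles with SE bars above Young as diamonds (22 of the 23 were measured in Young), filled where the adjusted p was below 0.05. In old macrophages 21 of 23 points lie above 0, and 1 of them, Hsph1 at 1.31, is filled.

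Cirbp and Rbm3 encode RNA-binding proteins that rise when cells cool. Cirbp had 292, 195 and 317 at ZT16, against 827, 649 and 807 at ZT4. The highest ZT16 library was below the lowest ZT4 library, but the log2 fold of -1.52 ± 0.31 had an adjusted p of 0.0874 in limma and did not pass. It passed in the fit of the 6 libraries alone and in DESeq2. Rbm3 had 115, 94.5 and 67.2 at ZT16, against 55.2, 65.7 and 41.8 at ZT4, above rather than below, with a log2 fold of 0.75 ± 0.36 (adjusted p = 0.594).

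Glucocorticoids peak around the onset of activity and act through the receptor encoded by Nr3c1. Of 19 measured genes of the glucocorticoid list none passed the threshold, 5 were higher at an unadjusted p of 0.05 and none was lower, against 4.39% and 3.96% of all genes. Their median log2 fold was 0.34, against 0.01 over all genes. The list was split in sign, with 13 above 0 and 6 below, against 6162 of 12016 above 0 over all genes. Those below 0 were Pdk4, Lcn2, Tsc22d1, Sgk1, Zbtb16 and Nr3c1. The 5 higher genes include Per1, which is also in the clock list. The count of 5 became 3 without Old ZT16 replicate 1 or Old ZT4 replicate 2. Without Old ZT16 replicate 1, 2 members were lower at that p. Tsc22d3, which encodes the mediator GILZ, had 3223, 3296 and 2747 at ZT16, against 1583, 1577 and 1847 at ZT4. These did not overlap, with a log2 fold of 0.89 ± 0.19 and an adjusted p of 0.097 in limma. DESeq2 called Tsc22d3. Cebpd, a transcription factor induced by glucocorticoids, had 342, 297 and 428 at ZT16, against 215, 253 and 165 at ZT4 (log2 fold 0.76 ± 0.20, adjusted p = 0.277), and overlaps Spidr on the opposite strand. Cd163, a scavenger receptor for haemoglobin, had 289, 123 and 57.3 at ZT16, against 62.1, 32.2 and 32.2 at ZT4, which overlapped (log2 fold 1.64 ± 0.60, adjusted p = 0.453). Fkbp5, a co-chaperone of the receptor, had a log2 fold of 0.97 ± 0.45, Klf9 one of 0.27 ± 0.22, and Nr3c1 itself one of -0.05 ± 0.12.

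The list of protein folding in the endoplasmic reticulum held 24 measured genes. None passed the threshold, and 22 were above 0, against 6162 of 12016 over all genes. At an unadjusted p of 0.05, 5 were higher and none lower, against 4.39% and 3.96% of all genes. Their median log2 fold was 0.19, against 0.01 over all genes. With 1 library left out that count was between 2 (without Old ZT16 replicate 3) and 8 (without Old ZT4 replicate 2), and it was 3 without Old ZT4 replicate 1 or 3 and with upper quartile scaling. Hspa5, which encodes the chaperone BiP, had 21588, 19549.5 and 21808 at ZT16, against 14774, 14738 and 11210.4 at ZT4. The groups did not overlap, and the log2 fold was 0.64 ± 0.21 (adjusted p = 0.393 in limma). Selenos, Manf and Dnajc3, all of the same quality control, had log2 folds of 0.40 ± 0.14, 0.48 ± 0.21 and 0.34 ± 0.16.

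Genes of lipid handling lay on both sides of 0. None of 24 measured genes passed the threshold, and 2 were higher and 2 lower at an unadjusted p of 0.05, against 4.39% and 3.96% of all genes. Lpl, the lipase that frees fatty acids from lipoproteins, had 3523, 2727 and 1410.3 at ZT16, against 4940.4, 5866 and 5051 at ZT4, all ZT16 libraries below all ZT4 libraries (log2 fold -1.14 ± 0.33, adjusted p = 0.335 in limma). The cholesterol exporter Abca1 had 1005, 1178 and 736 at ZT16, against 1523, 1533 and 1529 at ZT4 (log2 fold -0.68 ± 0.20), and Abcg1, the other exporter of cholesterol, had 887, 1059 and 1163 at ZT16, against 603, 698 and 535 at ZT4 (log2 fold 0.76 ± 0.22). Abca1 was thus lower and Abcg1 higher in every ZT16 library than in any ZT4 library, and both had an adjusted p of 0.362. Dgat2, which makes triglycerides, had 48.3, 10.6 and 41.1 at ZT16, against 4.14, 4.02 and 13.7 at ZT4, which overlapped (log2 fold 1.996 ± 0.68).

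Of 22 measured immediate early genes 20 were above 0, against 6162 of 12016 over all genes. Their median log2 fold was 0.22, with 3 higher and 2 lower at an unadjusted p of 0.05 (4.39% and 3.96% of all genes) and none past the threshold. Nr4a1, an orphan nuclear receptor, had a log2 fold of -0.81 ± 0.27, Egr1 one of -0.66 ± 0.32, and Ier5 and Jun ones of 0.46 ± 0.16 and 0.60 ± 0.27. Inflammatory, inflammasome, interferon, complement and Toll-like receptor lists held 24, 13, 37, 17 and 24 measured genes, none of which passed. Their counts at an unadjusted p of 0.05 were 2, 0, 0, 0 and 3, against 8.35% of all genes in both directions together. In the Toll-like receptor list, Nfkbiz, which encodes a nuclear IκB, had 271, 307 and 239 at ZT16, against 378, 499 and 389 at ZT4 (log2 fold -0.63 ± 0.17), and the lipopolysaccharide receptor Tlr4 had 578, 491 and 492 at ZT16, against 322, 425 and 291 at ZT4 (log2 fold 0.60 ± 0.22). Neither pair of groups overlapped, and the adjusted p were 0.277 and 0.453. Among 22 genes of glycolysis and hypoxia, 18 were above 0, 3 were higher and 1 lower at an unadjusted p of 0.05 (again 4.39% and 3.96% of all genes), and none passed. Hexokinase 2 (Hk2) had a log2 fold of 0.66 ± 0.21, the glucose transporter Slc2a1 one of 0.77 ± 0.27, and the oxygen sensor Egln3 one of -0.82 ± 0.22.

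Among the genes of lowest p not described above, none passed the threshold in limma. DESeq2 called Slc7a2, Platr26, Cx3cr1, Hnrnpdl, Dock6 and Hykk. Slc7a2, a transporter of cationic amino acids such as arginine, had 2876, 1543 and 2502 at ZT16, against 1082, 1181 and 900.4 at ZT4 (log2 fold 1.09 ± 0.23, adjusted p = 0.097), and it passed without Old ZT16 replicate 2 and in DESeq2. The noncoding RNA Platr26 had 73.9, 89.2 and 103 at ZT16, against 235, 219.8 and 259 at ZT4 (log2 fold -1.42 ± 0.29, adjusted p = 0.0874). Cx3cr1, the fractalkine receptor of monocytes, had 212, 206 and 95.8 at ZT16, against 363, 365 and 522 at ZT4 (log2 fold -1.34 ± 0.31, adjusted p = 0.147). In all of these the groups did not overlap. Cx3cr1 is in the list of monocyte-derived macrophages, whose sum was 50783 to 97070 at ZT16 and 60662 to 65051 at ZT4. Of its 17 genes 11 had a log2 fold above 0, against 6162 of 12016 over all genes, with a median of 0.15. At an unadjusted p of 0.05, 1 was higher and 1 lower, against 4.39% and 3.96% of all genes. The sum of 97070 was in Old ZT16 replicate 1, and Old ZT16 replicates 2 and 3 had 62474 and 50783. The part of monocyte-derived cells in the result was not tested. Hnrnpdl, an RNA-binding protein, had a log2 fold of -0.50 ± 0.11, the exchange factor Dock6 one of -1.29 ± 0.29, and Hykk, a kinase of hydroxylysine, one of -2.86 ± 0.65 at levels of 0.985 to 2.12 at ZT16 and 8.23 to 34.8 at ZT4. Other gene models overlap Cx3cr1 and Dock6 on both strands, so their reads are uncertain.

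The next comparison asked whether the change from ZT4 to ZT16 differed between old and young macrophages. The reads of all 42 libraries were recovered and rescaled together, and the difference between the 2 contrasts was tested for 12086 genes. It passed for 6 of them (0.0496%; 16 without Old ZT16 replicate 2 and 35 without Young ZT4 replicate 1), of which Per2, Per3, Tef, Dbp and Nr1d1 are clock genes and Gbp8 is an interferon-induced GTPase. Log2 differences are Old minus Young, so a negative one means a lower log2 fold in old macrophages.

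Per2 had 338, 390.5 and 329 rescaled reads in Old ZT16 and 67.6, 46.8 and 38.9 in Old ZT4, beside 614, 548 and 635 in Young ZT16 and 13.01, 13.04 and 10.9 in Young ZT4. The gene was higher at ZT16 in both ages, with a log2 difference of -2.70 ± 0.46 (adjusted p = 0.00259 in limma). Old libraries lay below Young ones at ZT16 and above them at ZT4. Tef had 1151, 1382 and 1398 in Old ZT16 and 763, 582 and 631 in Old ZT4, beside 2077, 1907 and 1706 in Young ZT16 and 384, 317 and 352 in Young ZT4. Its difference of -1.44 ± 0.22 (adjusted p = 0.00158) had the same shape.

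Per3, a Period gene with D-boxes in its promoter, had 179.5, 326 and 200.1 in Old ZT16 and 144, 155 and 130.0 in Old ZT4, beside 399.9, 338 and 412 in Young ZT16 and 51.1, 59.6 and 60.1 in Young ZT4. The difference was -2.06 ± 0.38 (adjusted p = 0.0078), and 0.0506 without Old ZT16 replicate 1. The Per3 model lies within that of Camta1 on the same strand, which averaged 125 in Old ZT16 and 146 in Old ZT4 (deposited values), so the reads of Per3 are uncertain. Dbp had 39.5, 72.6 and 60.9 in Old ZT16 and 51.04, 97.9 and 98.6 in Old ZT4, which overlapped, beside 164, 223 and 145 in Young ZT16 and 23.02, 24.2 and 10.9 in Young ZT4, which did not. Its difference was -3.68 ± 0.63 (adjusted p = 0.00259). The last 737 bases of Dbp overlap Sphk2 on the opposite strand, which averaged 812 in Old ZT16 and 889 in Old ZT4 (deposited values), so with strand use unknown the reads of Dbp are uncertain too. The Per3 window is shown because it holds the D-box TTATGTAA, in capitals, and was chosen after the values were seen (RefSeq, GRCm38.p6, chr4:151044616-151044915, minus strand).
Per3: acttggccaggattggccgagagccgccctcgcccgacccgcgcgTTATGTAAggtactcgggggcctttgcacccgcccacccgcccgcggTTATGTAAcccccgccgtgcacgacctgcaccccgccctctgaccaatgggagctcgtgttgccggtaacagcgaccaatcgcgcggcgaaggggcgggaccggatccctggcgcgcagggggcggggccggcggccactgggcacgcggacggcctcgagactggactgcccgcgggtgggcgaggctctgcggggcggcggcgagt
The 2 matches begin 205 and 158 bases before the start site, and 1.06% of the 32851 windows hold TTATGTAA or TTACGTAA on either strand. A match does not show a bound site, and whether DBP or TEF acts on Per3 in these cells was not tested.

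Nr1d1 had 12.8, 11.5 and 0 in Old ZT16 and 146, 104 and 109.8 in Old ZT4, beside 29.7, 38.2 and 60.6 in Young ZT16 and 17.02, 15.8 and 18.5 in Young ZT4. All Old ZT16 libraries lay below all Old ZT4 libraries, and all Young ZT16 libraries lay above all Young ZT4 libraries. In the separate fit of the Young libraries the log2 fold was 1.22 (adjusted p = 0.496 in limma). The log2 difference was -5.64 ± 1.08 (adjusted p = 0.0132). That became 0.0647 without Old ZT4 replicate 1, 0.118 without Old ZT16 replicate 3 and 0.0737 without Young ZT16 replicate 3. For Thra, the neighbour of Nr1d1, the difference was -0.57 ± 0.25 (adjusted p = 0.69). Gbp8 (chromosome 5, 105014150 to 105139540, minus strand, ENSMUSG00000034438) had 145, 50.7 and 75.7 in Old ZT16 and 10.5, 26.3 and 16.4 in Old ZT4, beside 6.61, 4.98 and 0.807 in Young ZT16 and 14.01, 137 and 148 in Young ZT4. The difference was 6.20 ± 1.06 (adjusted p = 0.00259). In the separate limma fits of each age the log2 folds were 2.24 ± 0.60 in Old (adjusted p = 0.277) and -3.99 in Young (adjusted p = 0.00685). The Gbp8 model overlaps Gbp9 and Gbp4 on the same strand and belongs to a family of close copies, so its reads are uncertain.

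**Figure D5:**
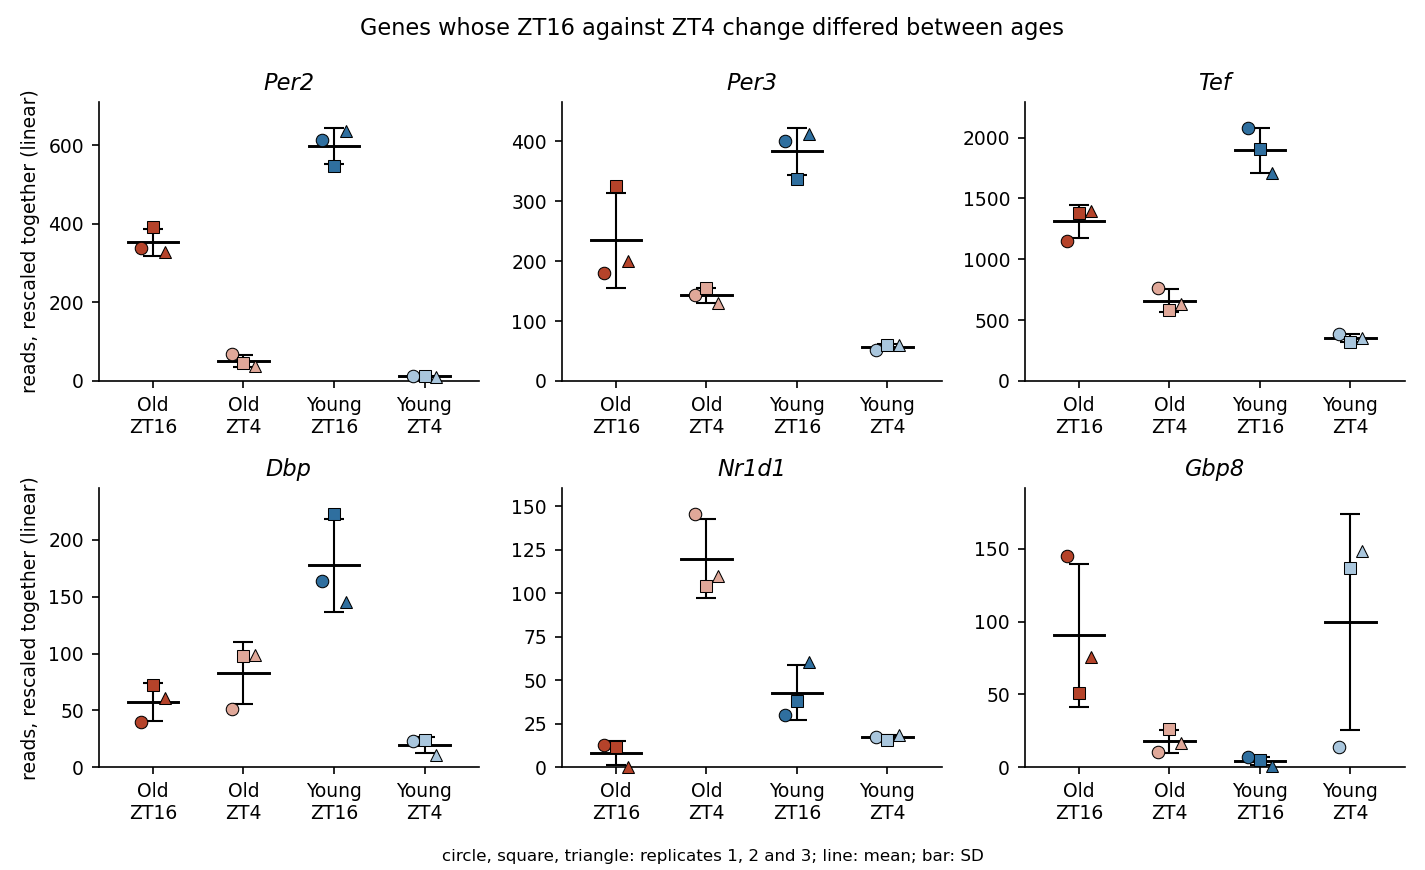
Reads rescaled together (linear axes from 0) of the 6 genes whose ZT16 against ZT4 change differed between ages, in the 3 libraries of Old ZT16, Old ZT4, Young ZT16 and Young ZT4, with mean and SD. Per2, Per3 and Tef are higher at ZT16 in both ages with a smaller step in Old, Dbp steps up in Young alone, and Nr1d1 and Gbp8 run opposite ways in the 2 ages.

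For the heat shock, glucocorticoid and cold-inducible lists no member passed the test of the difference. Hsph1 had a log2 difference of -0.49 ± 0.34 (95% interval -1.18 to 0.21, adjusted p = 0.866), Cirbp one of 0.47 ± 0.45 (-0.44 to 1.38, adjusted p = 0.901) and Tsc22d3 one of -1.06 ± 0.26 (-1.58 to -0.54, adjusted p = 0.171). Missing the threshold does not show that the ages changed alike. All genes had 0.0416% called in Old and 2.42% in Young. Beside that background, the heat shock list had 1 of 23 members called in Old and 8 of 22 in Young, beside medians of 0.44 in Old and 0.50 in Young, and the glucocorticoid list none of 19 in Old and 5 of 18 in Young, beside medians of 0.34 in Old and 0.44 in Young. Those medians are over the genes measured at each age. Gene by gene, the log2 difference had a median of -0.50 over 18 glucocorticoid genes, of which 15 were below 0. For 23 heat shock genes the median difference was -0.0002, with 12 below 0. Over all 12086 genes it was 0.0085, with 5921 below 0. Of the 161 genes called higher in Young, 137 had a positive fold in Old too (85.1%), with median log2 folds of 0.28 in Old and 0.72 in Young. Of the 132 called lower in Young, 92 had a negative fold in Old (69.7%), with medians of -0.18 in Old and -0.92 in Young. These genes were chosen for their size in Young, which makes the Young medians large. The SE of the contrast was larger in Old for 73.5% of the 11782 genes tested in both ages, with a median of 0.248 in Old and 0.217 in Young.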

How the data were processed

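The authors deposited 1 table of normalized signal per age. Per the submitters' processing notes, STAR, DESeq2 and mm10 were used; no source used here gives the counter, its strand setting, the annotation or versions. QuantSeq 3′ libraries were made from total RNA, per the labels' protocols. Each value above 0 was a whole multiple of the library's step (100% within 0.001), the pattern left by a size factor, and dividing by the step gave the reads, 6057242 to 11969990 in the 6 libraries. Without molecular identifiers, reads are not counts of separate molecules. All 42 replicate pairs differed beyond sampling noise.

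Limma-trend 3.58.1 (R 4.3.3) was fitted to log2(value + 1) of the 21 libraries of an age, with a mean per time, for genes with a mean of at least 10. The pseudocount bears on the size of changes of low genes. For Nr1d1 the log2 difference between ages was -5.64 with 1 added, -6.02 with 0.5 and -4.50 with 5. It was -5.13 in edgeR and -5.15 in DESeq2. Age differences were fitted on all 42 libraries after joint median-of-ratios scaling. EdgeR 4.0.16, DESeq2 1.42.0 on the recovered reads and other scalings, filters and pseudocounts were alternatives. So were marker covariates, array weights, a replicate block and each library left out. The limma fit alone was also run on simulated reads with the same relative spread for every gene. That run does not cover the alternatives or genes with a single library far apart. Of 47643 genes, 47224 matched GENCODE M21 positions (GRCm38).

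The groups, gene lists and tests were chosen with earlier results of these data known. Named genes are the called genes, filled up to 8 per direction by lowest p, all measured clock and cold-inducible genes, up to 4 of lowest p per other list, and genes whose change differed between ages; 169 met the rule, 128 of them with a promoter window, and the text gives those of the lists it describes. Further list members are named to show their range.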

Additional observations from a re-analysis of the deposited data

Results flagged for a closer look

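The change between ZT16 and ZT4 differed between old and young macrophages for 6 genes, by a test of the difference itself (limma, Old minus Young, log2 scale, 3 libraries in each of the 4 groups). The differences were -1.44 ± 0.22 for Tef, -2.70 ± 0.46 for Per2, -3.68 ± 0.63 for Dbp, -2.06 ± 0.38 for Per3, -5.64 ± 1.08 for Nr1d1 and 6.20 ± 1.06 for Gbp8 (SE). The adjusted p ranged from 0.00158 for Tef to 0.0132 for Nr1d1. Tef, Per2 and Dbp passed in all 20 alternatives, with adjusted p up to 0.0105, 0.0280 and 0.0210. Per3 and Gbp8 passed in 19 of 20, with 0.0506 without Old ZT16 replicate 1 for Per3 and 0.0628 in the fit of the 12 libraries alone for Gbp8, and Nr1d1 passed in 14. The cause was not tested.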

How the results depend on the processing

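Between Old ZT16 and Old ZT4, 5 genes were called, and the count was 4 or 5 with other pseudocounts, filters and scalings, array weights or marker covariates. These were not always the same genes: array weights lost Tef and added Hspa8, and marker covariates lost Thra and added Tsc22d3. It was 3 in edgeR, 26 in DESeq2 (all 5 among them), 3 in the fit of the 6 libraries alone, 14 at an adjusted p of 0.10, and 1 to 7 with 1 library left out. Without a filter the 5 calls shared Hsph1 and Per2 with the 5 above. For Young ZT16 and Young ZT4 the count of 293 became 167 without a filter, 482 in DESeq2, 94 in the fit of 6 libraries and 141 to 401 with 1 library left out (141 without Young ZT16 replicate 1 and 188 without Young ZT4 replicate 2). The difference between ages gave 6 genes, 11 in edgeR, 24 in DESeq2 and 5 to 35 with 1 library left out (16 without Old ZT16 replicate 2 and 35 without Young ZT4 replicate 1). Same-numbered ZT16 and ZT4 libraries did not deviate together over all genes (r of -0.04, 0.03 and -0.05 in Old). A pairing that touches few genes would not show this way, so the check cannot decide whether the numbers pair libraries. A replicate block gave 3 calls in Old (Hsph1, Nr1d1 and Per2), 288 in Young and 6 for the difference. Genes near 0 changed sign: Bhlhe41 had log2 folds of 0.0099 in edgeR, 0.0111 in DESeq2, 0.0254 with marker covariates and -0.47 to 0.18 with 1 library left out, and Nr1d2 had 0.0043 with covariates and -0.40 to 0.16 with 1 left out. Nfil3 had -0.0886 to 0.0108 with 1 left out. The counts of list members under each alternative were chosen after seeing the data. The causes were not tested. Genes with few reads, such as Nr1d1 and Ciart, are limited by depth.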

Other observations

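Some genes had 1 library far above the other 5. These, and Penk, are named here after their values were seen. Chil3, which encodes the chitinase-like protein Ym1 of alternatively activated macrophages, had 1563, 43.6 and 15988 at ZT16, against 102, 60.3 and 60.3 at ZT4. Its highest value, in Old ZT16 replicate 3, was far above the other 5. The value in Old ZT16 replicate 1 was also far above those of Old ZT16 replicate 2 and the ZT4 libraries. DESeq2 called Chil3 (adjusted p = 0.00764) while limma did not (0.473). Erc2, a gene of the presynaptic zone, had 19.7, 21.2 and 955 at ZT16, against 22.1, 16.1 and 5.49 at ZT4, with Old ZT16 replicate 3 alone apart. Of genes at 100 or more in their highest library and at least 10 times above the other 5, 18 had that peak in Old ZT16 replicate 3, 3 in Old ZT16 replicate 1 (Jchain, Ccl8 and Wfdc21) and none in the other 4. Jchain, a gene of antibody-secreting cells, had 615, 14.9 and 24.9 at ZT16, against 27.6, 0 and 17.8 at ZT4. Penk, which encodes enkephalin precursors, had 5.91, 3.19 and 17.4 at ZT16, against 0, 0 and 0 at ZT4 and is under the mean of 10 used as a filter.

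DNA replication and mitosis lists, which are markers of dividing cells, had 24 of 26 and 19 of 24 measured genes above 0 in Old ZT16 against Old ZT4. Over all genes that was 6162 of 12016. The 2 lists had median log2 folds of 0.31 and 0.30. None passed the threshold, and 1 of each list was higher at an unadjusted p of 0.05, which is 3.85% and 4.17% of them, against 4.39% of all genes. The summed levels overlapped, at 5279 to 8336 in Old ZT16 and 5273 to 6789 in Old ZT4 for replication, and at 2972 to 5900 in Old ZT16 and 2216 to 5276 in Old ZT4 for mitosis. Proteasome (22 of 25) and respiratory chain (24 of 30) genes also lay mostly above 0 in Old. In Young, 2 of 26 replication and 6 of 24 mitosis genes were above 0. The difference, Old minus Young, was above 0 for all 26 replication genes (median 0.57) and 19 of 24 mitosis genes (median 0.29), with none past the threshold. In Old, all 10 measured genes of the mitochondrial genome had a log2 fold below 0 (median -0.21), and none passed. The share of reads on that genome was 1.37% to 1.84% in Old ZT16 and 1.56% to 2.13% in Old ZT4.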
